A study of Mus musculus with 12 samples.

Results

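The comparison described here sets the left ventricles of mice that received both pressure overload and pimobendan against the left ventricles of mice that received neither. Its members were chosen by their surgery and drug labels: 3 TAC+pimobendan libraries and 3 Sham+control libraries, 6 of the 12 in the series, each from a separate C57BL/6 mouse. TAC (transverse aortic constriction) is an operation in which the aortic arch is narrowed with a clip, so that the left ventricle ejects against a higher pressure. Sham mice were operated on without the clip. All mice were operated on at 8 weeks of age and sampled at 12 weeks. TAC+pimobendan mice were given pimobendan at 1 mg per kg per day for 4 weeks. The other groups, TAC+control and Sham+pimobendan, also had 3 mice each, and their values are given beside the results. No genetic alteration is given in the labels for any group. Since surgery and drug both differ between the groups compared, the part of each in a difference cannot be told apart from this comparison alone. The comparison asks what still separates the treated, loaded ventricle from the untreated, unloaded one.

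Pimobendan is an oral inotrope used in heart failure. It sensitises troponin C to calcium and inhibits phosphodiesterase 3, the enzyme that breaks down cyclic AMP beside the calcium stores of the heart muscle cell. Under pressure overload heart muscle cells enlarge and turn on genes of the fetal heart, such as those of the natriuretic peptides, skeletal alpha-actin and beta-myosin heavy chain, while fibroblasts lay down collagen. MAP kinases are among the signals that link stretch to these genes, and immediate early genes such as Fos and Egr1 are their first transcriptional targets.

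Expression was given as FPKM, fragments scaled by transcript length and by library size, for 17052 genes. Testing was limited to the 11415 genes that reached 1 FPKM in 3 or more of the 12 libraries. Differences are TAC+pimobendan minus Sham+control on the log2(FPKM + 1) scale with the standard error (SE) of limma, a linear model with variances moderated across genes, and adjusted p-values are Benjamini-Hochberg values over all 11415 genes. On that scale the change of a low gene is understated. The number of reads behind each library is unknown, because the files hold no counts. Values are listed in the order of replicates 1, 2 and 3, which are names of separate mice. Between 1973 and 2167 genes per library were listed at 0 in the 6 libraries compared, and such a value may be a failed estimate. All 14 heart muscle cell markers were tested, with a summed level of 92854 to 101191 FPKM in Sham+control and 88286 to 100120 FPKM in TAC+pimobendan, and 3 thymus markers summed to at most 0.34 FPKM. In pieces of ventricle, fewer cells of a type and less RNA per cell cannot be told apart.

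No gene passed the test: 0 of 11415 genes (0%) had a limma adjusted p under 0.05, and the smallest was 0.233. At an unadjusted p under 0.05 limma gave 1247 genes with a higher level in TAC+pimobendan (10.9%) and 265 with a lower level (2.32%). In 1168 genes (10.2%) all 3 TAC+pimobendan libraries lay above all 3 Sham+control libraries, and in 515 (4.51%) all lay below. A positive difference was found in 6442 genes (56.4%), the share to set beside the counts of positive list members below. The differences were small for most genes. The 95% interval lay within 1 log2 unit of 0 in either direction for 10941 genes (95.8%), and 37 genes had a difference of at least 1 log2 unit, 9 positive and 28 negative. In the same fit TAC+control minus Sham+control had 0 called genes (0%), Sham+pimobendan minus Sham+control had 0 (0%) and TAC+pimobendan minus TAC+control had 373 (3.27%). These contrasts share libraries with the one described here and are not independent of it. Whether load and drug together differed from the sum of each alone was tested as an interaction, which had 0 called genes (0%).

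The count of 0 depended on TAC+pimobendan replicate 1. Without that library limma called 333 genes, 326 with a higher level in TAC+pimobendan and 7 with a lower one. The 333 genes had a median GC content of 40.6%, against 50.1% among all genes tested. With the GC trend removed, 5 of them stayed called. In 171 of them the groups did not overlap over all 6 libraries, against 10.2% above and 4.51% below among all genes. They were picked from these same libraries, so that separation is not separate support. With both TAC+pimobendan replicate 1 and Sham+control replicate 1 left out, 694 genes were called. Leaving out any other single library gave 0.

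Libraries differed in how a gene's level depended on the GC content of its transcript, and the difference ran partly along the groups. For each library, the deviation of every gene from its 12-library mean was ranked against GC content. Spearman's rho was -0.34, 0.08 and 0.45 for Sham+control, against -0.19, -0.51 and -0.52 for TAC+pimobendan. The 3 TAC+pimobendan libraries were all negative, and Sham+control replicate 1 lay among them. TAC+control stood at 0.12, 0.005 and 0.28. The contrast with TAC+control, which had 373 called genes, was not repeated with the GC trend removed. The genes with a small unadjusted p followed this trend. Median GC content was 42.6% among the 1247 genes with a higher level, 55.2% among the 265 with a lower level, and 50.1% among all genes tested. With genes split into 5 equal bins by GC content, 562 of 2267 genes of the lowest bin (24.8%) lay above Sham+control without overlap, against 61 (2.69%) in the highest bin. When each library's GC trend was removed, the counts at an unadjusted p under 0.05 were 570 higher and 425 lower, and the share of genes with a positive difference went from 56.4% to 47.6%. It was 46.3% after quantile normalization. Below, the value with the GC trend removed is given for each named gene whose difference it moved by more than 1.5 times, and for some others. The plot of list medians gives it for each list. The part of GC content in any of them was not tested further.

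**Figure D1:**
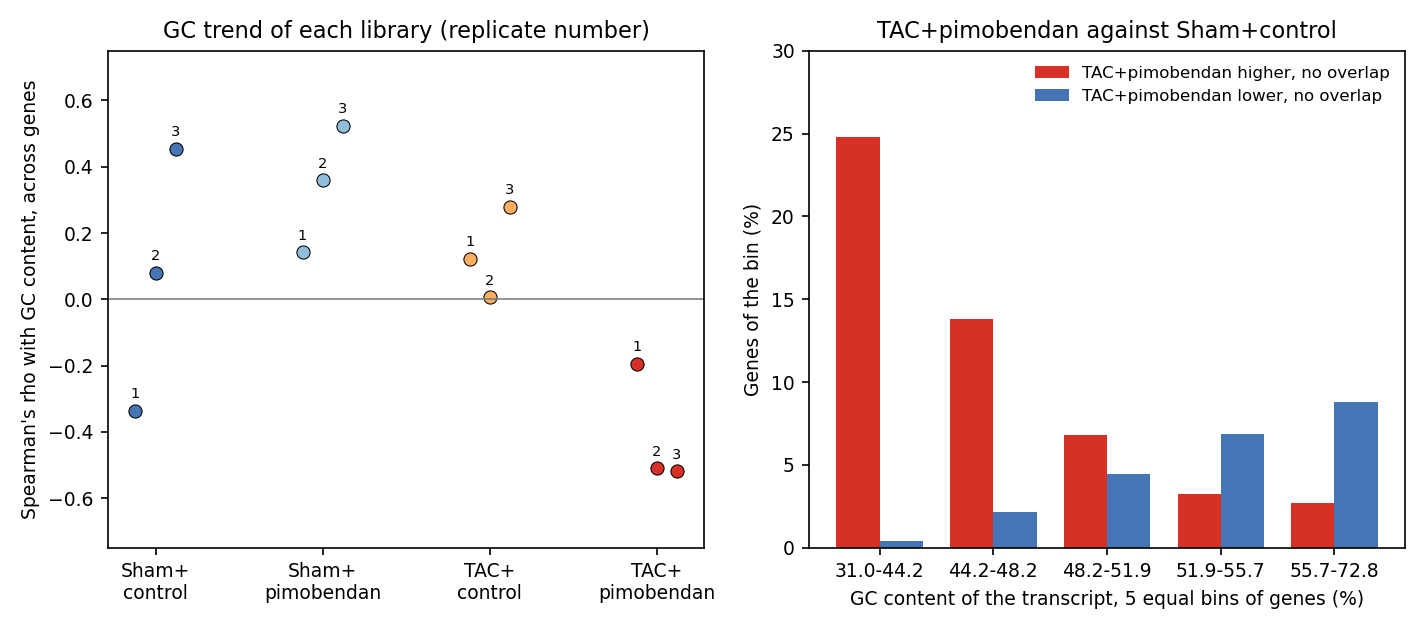
Left, Spearman's rho across genes, for each library, of transcript GC content with the deviation of a gene from its 12-library mean, by group, with the replicate number above each point. Right, the percentage of genes in each of the 5 GC content bins whose 3 TAC+pimobendan libraries all lay above (red) or all lay below (blue) the 3 Sham+control libraries. The share above went from 24.8% in the lowest bin to 2.69% in the highest, and the share below from 0.397% to 8.78%.

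Among genes with a mean of at least 5 FPKM in the higher group, those with the smallest p in the positive direction included Gpr22, 2310002L09Rik, Prune2 and Pln. Gpr22 encodes an orphan G protein-coupled receptor found in heart and brain, and its gene lies on chromosome 12 (31706867 to 31713926, GRCm38). Its level was 3.76, 3.01 and 3.27 FPKM in Sham+control and 6.29, 9.98 and 10.7 FPKM in TAC+pimobendan. Every TAC+pimobendan library lay above every library of the other 3 groups, whose highest value was 5.25 FPKM. The difference was 1.17 ± 0.21 log2 units (95% interval 0.71 to 1.64), a ratio of 2.69 between group means, with a limma adjusted p of 0.233, and it was 0.78 with the GC trend removed. Gpr22 has a GC content of 35.4%.

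Pln encodes phospholamban, the brake on the calcium pump of the sarcoplasmic reticulum. Its level was 2666, 2458 and 2211 FPKM in Sham+control and 3030, 3471 and 3838 FPKM in TAC+pimobendan. The groups did not overlap, and TAC+control (2274, 2613 and 2393 FPKM) and Sham+pimobendan (2607, 2384 and 2186 FPKM) lay in the Sham+control range or near it. The difference was 0.49 ± 0.10 log2 units, and 0.19 with the GC trend removed. Against TAC+control, where the limma adjusted p was 0.0409, it was 0.50. That contrast was not repeated with the GC trend removed.

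Prune2, a gene of the prune phosphatase family, had levels of 10.1, 9.11 and 9.82 FPKM in Sham+control and 13.8, 15 and 17.1 FPKM in TAC+pimobendan. No libraries overlapped, and the difference of 0.61 ± 0.12 log2 units was 0.54 with the GC trend removed. 2310002L09Rik differed by 0.77 ± 0.15 (0.43 with the trend removed). Prune2 was thus the member of these 4 whose difference depended least on GC content. Over the settings tried, the lowest limma adjusted p of the 4 genes was between 0.013 and 0.027, and the highest was 0.665 for each.

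In the negative direction the 5 genes were Nfkbia, Slc25a38, Cxcl14, Nmb and Rtn2. Nfkbia encodes I-kappa-B alpha, the inhibitor that holds NF-kappa-B in the cytoplasm and is itself an NF-kappa-B target. Its level was 47.3, 41.3 and 31.7 FPKM in Sham+control and 26.3, 25.2 and 25.7 FPKM in TAC+pimobendan. The groups did not overlap, the TAC+pimobendan libraries differed little among themselves, and the difference was -0.60 ± 0.15 log2 units, or -0.57 with the GC trend removed. TAC+control stood at 27.0, 21.7 and 26.6 FPKM and Sham+pimobendan at 48.4, 46.0 and 35.8 FPKM, so both groups with TAC were low and both sham groups high. The load difference alone was -0.64 and the drug difference under load 0.04.

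Cxcl14, a chemokine, had levels of 14.4, 16.1 and 18.8 FPKM in Sham+control and 11.9, 8.90 and 10.8 FPKM in TAC+pimobendan. There was no overlap, and the difference was -0.60 ± 0.15 log2 units (-0.55 with the trend removed). Nmb, which encodes the peptide neuromedin B, differed by -0.89 ± 0.22 log2 units. Slc25a38, the mitochondrial glycine carrier of haem synthesis, differed by -0.35 ± 0.09, and Rtn2, a reticulon of the endoplasmic reticulum, by -0.29 ± 0.08. Each of these had no overlap between the groups. The 5 negative differences moved by at most 0.05 log2 units when the GC trend was removed, less than those of Gpr22, Pln and 2310002L09Rik. Dynlt1b, a light chain of the dynein motor, was chosen after its values were seen, because it was called where the 2 groups were fitted alone (adjusted p 0.0461, against 0.233 in the fit of all 12 libraries). Dynlt1b stood at 21.2, 25.7 and 19.9 FPKM in Sham+control and 6.59, 8.40 and 8.88 FPKM in TAC+pimobendan, a difference of -1.38 ± 0.36. Near-identical Dynlt1 copies make its counting uncertain, and Sham+pimobendan spanned 9.14 to 31.6 FPKM.

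**Figure D2:**
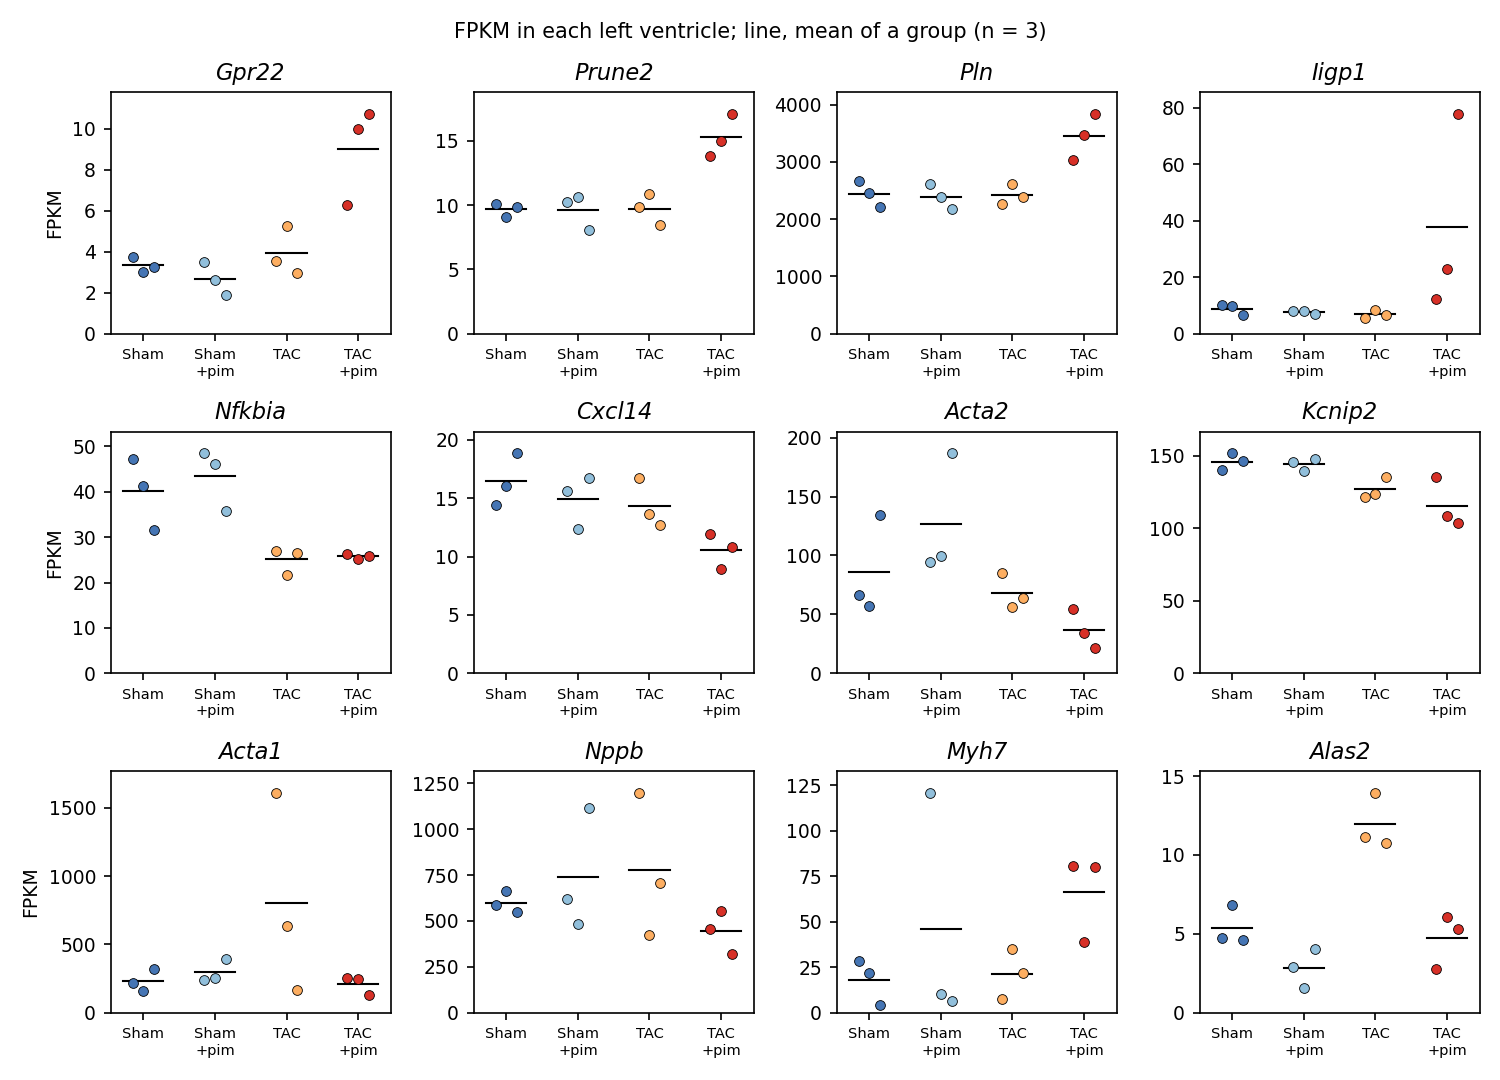
FPKM of 12 genes in each of the 12 left ventricles, by group (Sham, Sham+control; TAC, TAC+control; +pim, pimobendan given), with a line at the mean of the 3 mice and a linear axis from 0. Gpr22, Prune2, Pln and Iigp1 lie highest in TAC+pimobendan, Nfkbia is low in both TAC groups, and Acta1, Nppb and Alas2 have their highest values in TAC+control.

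The fetal and hypertrophy genes showed no common direction. Of 22 tested members 9 had a positive and 13 a negative difference, with a median of -0.04 against 0.03 over all genes tested. The groups did not overlap in 3 members with a higher level in TAC+pimobendan (background 10.2%) and 3 with a lower one (background 4.51%). Acta1, skeletal alpha-actin, stood at 215, 157 and 318 FPKM in Sham+control and 251, 246 and 131 FPKM in TAC+pimobendan. The ranges overlapped almost fully (-0.14 ± 0.60 log2 units, and -0.09 with the GC trend removed), while TAC+control held 1608, 632 and 166 FPKM, a wide spread with 1 mouse in the sham range. Nppb, which encodes the B-type natriuretic peptide, stood at 587, 661 and 550 FPKM in Sham+control and 456, 555 and 322 FPKM in TAC+pimobendan. The ranges overlapped in 1 TAC+pimobendan mouse (-0.46 ± 0.35), and TAC+control held 1197, 423 and 708 FPKM. Nppa, the atrial natriuretic peptide gene, differed by 0.43 ± 0.34, and Ankrd1, a stretch-responsive titin partner, by 0.44 ± 0.30.

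Myh7, the beta-myosin heavy chain of the fetal heart, had the largest positive difference of this list. Its level was 28.3, 21.99 and 4.51 FPKM in Sham+control and 80.5, 39.1 and 80.4 FPKM in TAC+pimobendan. There was no overlap, but the spread was wide: the difference was 2.05 ± 0.92 log2 units (95% interval 0.07 to 4.04, limma adjusted p 0.361), and 1.31 without Sham+control replicate 3. A Sham+pimobendan library reached 121 FPKM, and TAC+control held 7.30, 34.98 and 22.03 FPKM. Myh7b, a related slow myosin, had a smaller but tighter difference of 0.53 ± 0.14 (0.60 with the GC trend removed). Its level was 7.93, 6.53 and 8.14 FPKM in Sham+control and 11.7, 13.5 and 9.14 FPKM in TAC+pimobendan, without overlap. Xirp2, an actin-binding protein of the intercalated disc, differed by 0.76 ± 0.23 log2 units, with overlap. Adult alpha-myosin, Myh6, was at 4997 to 5257 FPKM in Sham+control and 4931 to 5041 FPKM in TAC+pimobendan, a difference of -0.05 ± 0.06 that was -0.0039 with the GC trend removed. Its 95% interval, -0.19 to 0.08, leaves room for only a small difference in either direction.

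Calcium handling genes were mostly positive by small amounts. Of 21 tested members 17 had a positive difference (background 56.4%). Without overlap, 5 lay above Sham+control (background 10.2%) and 1 below (background 4.51%). The median was 0.09, which was 0.00 with the GC trend removed. The summed score of the list, the mean over members of log2(FPKM + 1) minus the Sham+control mean, was 0.12, 0.19 and 0.14 in TAC+pimobendan against 0.09, -0.10 and 0.02 in Sham+control. After Pln, the smallest p belonged to Cacnb2, a beta subunit of the L-type calcium channel, at 24.6, 20.1 and 21.8 FPKM in Sham+control and 30.6, 25.9 and 28.9 FPKM in TAC+pimobendan. The groups did not overlap, yet the difference of 0.35 ± 0.10 was 0.05 with the GC trend removed. Trdn, which encodes the calcium-release protein triadin and was chosen after its values were seen, stood at 14.1, 12.6 and 11.2 FPKM against 14.5, 36.1 and 26.4 FPKM. TAC+pimobendan replicate 1 lay next to the sham values there, and the difference of 0.88 ± 0.27 was 0.53 with the trend removed. Atp2a2, the SERCA2 calcium pump that phospholamban restrains, held 4028, 3584 and 3711 FPKM in Sham+control and 3805, 3606 and 4149 FPKM in TAC+pimobendan. The values overlapped, and the 95% interval of its difference was -0.12 to 0.18. The difference itself was 0.03 ± 0.07, and -0.02 with the trend removed.

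The targets of pimobendan itself had no separated levels. Tnnc1, troponin C of the heart, was at 3870, 4381 and 4748 FPKM in Sham+control and 4084, 4776 and 3207 FPKM in TAC+pimobendan (-0.12 ± 0.12 log2 units). Pde3a, the main phosphodiesterase 3 of heart muscle, was at 9.17, 7.61 and 6.46 FPKM against 9.51, 7.84 and 10.7 FPKM. Both pairs of ranges overlapped, and the Pde3a difference was 0.24 ± 0.16, or 0.06 with the GC trend removed. Pde3b differed by 0.04 ± 0.12, and by -0.11 with the trend removed. Of the 18 phosphodiesterases tested 10 were positive and 8 negative (median 0.03), and the 2 with the smallest p, Pde7b (0.68 ± 0.22) and Pde1c (0.52 ± 0.19, and 0.34 with the trend removed), lay above Sham+control without overlap (background 10.2%). Pde7b degrades cyclic AMP, and Pde1c is a calcium and calmodulin-dependent phosphodiesterase. Among 32 cyclic AMP and adrenergic signalling genes 20 were positive (background 56.4%) and 1 lay above Sham+control without overlap (background 10.2%). The median was 0.09, and 0.05 with the GC trend removed.

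Filament genes were level or slightly lower. Of 17 thick and thin filament genes 10 had a negative difference (median -0.06). Tpm1, alpha-tropomyosin, stood at 10825, 11462 and 11386 FPKM in Sham+control and 9954, 10817 and 9208 FPKM in TAC+pimobendan, a non-overlapping but small difference of -0.17 ± 0.09. The Z-disc and M-band list of 19 split, with 12 positive members. Without overlap, 1 lay above Sham+control (background 10.2%) and 4 below (background 4.51%). Its 2 members with the smallest p had opposite signs. Nebl, the thin-filament protein nebulette, differed by 0.67 ± 0.20 (GC content 40.1%, 0.41 with the trend removed), and Actn2, the alpha-actinin of the Z-disc, by -0.25 ± 0.08 (GC content 55.1%, -0.20 with the trend removed). Kcnip2, the subunit that sets the density of the transient outward potassium current, was lower without overlap: 140, 152 and 146 FPKM in Sham+control and 135, 108 and 103 FPKM in TAC+pimobendan. Its difference was -0.34 ± 0.09, and -0.30 with the trend removed, while Kcnd2, a pore subunit of the same current, differed by 0.42 ± 0.12 (0.27 with the trend removed) in the opposite direction. Of 24 channel genes 17 were positive (background 56.4%), with a median of 0.14.

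The MAP kinase cascade, which the title of the study names, had a median close to that of all genes. Of 41 tested kinases and adaptors 22 were positive and 19 negative, with a median of 0.02 against 0.03 over all genes. Without overlap, 4 lay above and 3 below, against 10.2% and 4.51% of all genes. The smallest p belonged to Rps6ka3, a ribosomal S6 kinase downstream of ERK (0.61 ± 0.17, and 0.35 with the GC trend removed). RNA levels do not report phosphorylation, by which these kinases are switched on. Of 19 genes on the feedback list, which holds phosphatases and inhibitors of the cascade, 9 were positive and 10 negative (median -0.07). Without overlap, 1 of them lay above Sham+control (background 10.2%) and 3 below (background 4.51%). Rasa1 had the largest positive difference, 0.59, which was 0.37 with the GC trend removed. Dusp6, the ERK phosphatase, was at 17.9, 16.9 and 13.9 FPKM in Sham+control and 12.7, 11.9 and 12.9 FPKM in TAC+pimobendan. Its groups did not overlap (-0.34 ± 0.18), and TAC+control was lower still at 11.9, 7.14 and 10.9 FPKM. Dusp8, a phosphatase of JNK and p38, was at 23.9, 16.8 and 18.6 FPKM in Sham+control and 14.4, 10.7 and 12.4 FPKM in TAC+pimobendan. This pair did not overlap either (-0.62 ± 0.22), and here TAC+control was at 29.5, 16.3 and 23.3 FPKM.

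Immediate early genes were lower on average, with large differences between mice of a group. Of 28 tested members 27 had a negative difference, the median was -0.59, and 5 lay below Sham+control without overlap (background 4.51%). The list's score was 0.51, 0.58 and -1.09 in Sham+control, against -0.93, -1.18 and -0.23 in TAC+pimobendan. Sham+control replicate 3 thus lay among the TAC+pimobendan mice, and TAC+pimobendan replicate 3 above it. The median was -1.14 without Sham+control replicate 3 and -0.37 without Sham+control replicate 2. Fos, chosen after its values were seen, held 97.0, 169 and 18.8 FPKM in Sham+control and 27.9, 31.2 and 110 FPKM in TAC+pimobendan, with full overlap (-0.56 ± 0.95). Maff, a small MAF transcription factor, was at 12.9, 11.0 and 4.93 FPKM in Sham+control and 3.68, 2.32 and 3.85 FPKM in TAC+pimobendan. Arc, a synaptic immediate early gene, was at 4.42, 6.10 and 3.02 FPKM in Sham+control and 1.72, 0.97 and 1.68 FPKM in TAC+pimobendan. Neither of these overlapped, with differences of -1.24 ± 0.37 for Maff and -1.14 ± 0.36 for Arc, which stood at -1.19 and -1.08 with the GC trend removed. The median difference of the list in TAC+control minus Sham+control was -0.80 and in Sham+pimobendan minus Sham+control -0.37, and both share the Sham+control libraries.

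Genes that answer to stress hormones had a similar spread. Of 19 glucocorticoid targets and metallothioneins 11 were negative (median -0.34), and the median was 0.12 without Sham+control replicate 2. Sgk1, a serum and glucocorticoid-induced kinase, was at 132, 178 and 51.6 FPKM in Sham+control and 55.2, 39.6 and 50.6 FPKM in TAC+pimobendan. Sham+control replicate 3 overlapped the TAC+pimobendan range, and the difference was -1.14 ± 0.40. Cdkn1a, the cell-cycle inhibitor p21, also overlapped only through Sham+control replicate 3, with 35.1, 44.4 and 10.2 FPKM against 11.2, 6.46 and 12.9 FPKM (-1.28 ± 0.62). Depp1, a FoxO target induced by fasting, was at 80.7, 165 and 71.0 FPKM in Sham+control and 35.1, 54.0 and 27.3 FPKM in TAC+pimobendan. It did not overlap (-1.37 ± 0.43), and TAC+control was at 57.6, 14.3 and 19.98 FPKM, whereas Sham+pimobendan was at 119, 120 and 101 FPKM. Trim63, the muscle ubiquitin ligase MuRF1, differed by -0.49 ± 0.19 without overlap. Fbxo32, its partner atrogin-1, overlapped (-0.16 ± 0.27, and -0.27 with the GC trend removed) although TAC+control held lower values of 6.45, 8.46 and 13.4 FPKM.

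The interferon-inducible GTPases were the list with the largest positive median. These guanylate-binding proteins and immunity-related GTPases are induced by interferon and attack the membranes around intracellular pathogens. Promoters of the family are shown because a single sequence element recurs in them. Each line gives the 120 bases before the RefSeq start site on the gene's strand (GRCm38.p6). Capitals mark every match to GAAANNGAA on either strand, the core of the interferon-stimulated response element, bound by interferon regulatory factors. Overlapping matches run together.
Gbp2: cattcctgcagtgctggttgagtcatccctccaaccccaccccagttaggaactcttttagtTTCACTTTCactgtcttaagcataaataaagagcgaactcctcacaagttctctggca
Gbp3: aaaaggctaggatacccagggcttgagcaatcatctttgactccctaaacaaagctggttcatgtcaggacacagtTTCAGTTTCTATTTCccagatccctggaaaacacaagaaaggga
Gbp7: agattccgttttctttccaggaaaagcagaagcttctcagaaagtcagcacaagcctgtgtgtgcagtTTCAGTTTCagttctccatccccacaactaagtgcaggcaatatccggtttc
Igtp: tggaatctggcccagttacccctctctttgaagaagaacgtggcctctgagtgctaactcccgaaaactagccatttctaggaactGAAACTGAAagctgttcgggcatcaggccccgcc
Tgtp1: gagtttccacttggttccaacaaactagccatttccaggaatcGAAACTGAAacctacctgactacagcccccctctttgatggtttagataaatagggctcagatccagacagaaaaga

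The printed stretches lie at chr3:142620543-142620662 (plus strand) for Gbp2, at chr3:142559924-142560043 (plus) for Gbp3 and at chr3:142530216-142530335 (plus) for Gbp7. Those of the other pair lie at chr11:58199436-58199555 (plus) for Igtp and chr11:48992247-48992366 (minus) for Tgtp1. Gbp3 has another listed start site, which is not shown and whose window held 0 matches. In the window from 250 bases before to 50 bases after the start, 9 of the 10 GTPase genes with a promoter in the RefSeq table held the element (90.0%, exact 95% interval 55.5 to 99.7). The gene without it was Ifi47. A gene with several listed start sites was counted if any of them held a match. Over all tested genes 761 of the 9129 with a promoter held it (8.34%). Of 30 antiviral interferon-stimulated genes with a promoter, 17 held it (56.7%). A match is a description of the letters and not a shown binding site, and copies of 1 ancestral gene share their promoters.

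All 15 tested GTPases had a positive difference, from 0.39 to 1.58, with a median of 0.78 that was 0.61 with the GC trend removed. The groups did not overlap in 4 of the 15, against 10.2% of all genes. Iigp1, an immunity-related GTPase, stood at 10.02, 9.92 and 6.80 FPKM in Sham+control and 12.3, 23.1 and 77.8 FPKM in TAC+pimobendan. Gbp4 stood at 2.67, 2.61 and 2.16 FPKM in Sham+control and 3.76, 5.15 and 15.1 FPKM in TAC+pimobendan. Neither overlapped, but in both TAC+pimobendan replicate 3 was far above its group. Their differences were 1.58 ± 0.45 and 1.16 ± 0.33 log2 units, and 0.87 and 0.64 without that library.

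The genes whose promoters are printed were chosen after their values were seen. Gbp3 stood at 3.47, 2.56 and 2.90 FPKM in Sham+control and 3.09, 5.54 and 9.40 FPKM in TAC+pimobendan, and Gbp7 at 1.49, 0.87 and 0.98 FPKM against 1.27, 3.00 and 5.19 FPKM. In both, TAC+pimobendan replicate 1 lay within the sham range and replicate 3 was highest. Gbp2 was at 9.95, 8.03 and 9.86 FPKM against 8.68, 11.6 and 21.9 FPKM. Igtp was at 12.5, 14.8 and 12.1 FPKM against 15.03, 11.8 and 68.7 FPKM, and Tgtp1 at 1.58, 1.98 and 2.74 FPKM against 2.31, 2.23 and 10.2 FPKM. Replicate 3 alone carried the difference in Igtp and Tgtp1. Reads of Tgtp1 and Tgtp2, and of neighbouring Gbp copies, may have been split between near-identical genes, so single values are uncertain.

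Over the whole GTPase list the score was 0.05, -0.02 and -0.03 in Sham+control, against 0.18, 0.45 and 1.75 in TAC+pimobendan. The 3 treated, loaded hearts all lay above the sham hearts, but they spanned more than all other libraries together. The median difference was 0.25 without TAC+pimobendan replicate 3 and 1.06 without replicate 1. The list's median was -0.16 in TAC+control minus Sham+control, -0.01 in Sham+pimobendan minus Sham+control and 0.90 in TAC+pimobendan minus TAC+control, contrasts that share libraries.

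The antiviral interferon-stimulated genes had a smaller positive median. Of 40 tested members 33 were positive, with a median of 0.29 that was 0.20 with the GC trend removed. Without overlap, 5 lay above Sham+control and 2 below, near the 10.2% and 4.51% of all genes. Irf9, the DNA-binding subunit of the interferon-activated complex, stood at 7.93, 8.98 and 8.98 FPKM in Sham+control and 12.9, 13.8 and 23.2 FPKM in TAC+pimobendan. This was a difference of 0.83 ± 0.23 without overlap (0.82 with the trend removed), and Sham+pimobendan also reached above sham with 20.3, 11.4 and 9.88 FPKM. Ifit3b, an interferon-induced RNA-binding protein, differed by 0.62 ± 0.18, with TAC+pimobendan replicate 1 level with the highest sham value. Usp18, which switches the interferon receptor off and was chosen after its values were seen, went the opposite way at 7.32, 10.8 and 3.11 FPKM in Sham+control and 2.69, 3.29 and 4.47 FPKM in TAC+pimobendan. Its ranges overlapped (-0.74 ± 0.32). The list's score was -0.03, 0.24 and 0.57 in TAC+pimobendan, -0.11 to 0.08 in Sham+control and -0.40 to -0.31 in TAC+control.

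Markers of immune cells were given beside these lists. Of 15 macrophage markers 13 were positive, with a median of 0.23 (0.19 with the GC trend removed). Without overlap, 2 lay above Sham+control (background 10.2%) and 0 below (background 4.51%). Their summed level was 344 to 436 FPKM in Sham+control and 399 to 534 FPKM in TAC+pimobendan. Sham+pimobendan reached as high, at 380 to 562 FPKM, and TAC+control held 359 to 389 FPKM. The 2 with the smallest p were Ctss, a lysosomal protease of antigen-presenting cells (10.4, 10.03 and 7.90 FPKM against 13.4, 11.2 and 17.9 FPKM), and Mrc1, the mannose receptor of resident macrophages (4.71, 3.19 and 3.39 FPKM against 4.32, 6.07 and 8.04 FPKM). Ctss did not overlap and Mrc1 did, and in both TAC+pimobendan replicate 3 was highest, as it was for the GTPases. The summed level of T and NK cell markers was 0.98 to 1.51 FPKM in Sham+control and 0.85 to 3.37 FPKM in TAC+pimobendan, and none of these markers passed the filter on low values. The part of these cells in the interferon list was not tested. Of 27 antigen presentation genes 24 were positive, with a median of 0.12 that was -0.05 without TAC+pimobendan replicate 3. B2m, the light chain of MHC class I, stood at 379, 364 and 351 FPKM against 386, 405 and 665 FPKM (0.37 ± 0.18, and 0.13 with the GC trend removed). Of 17 complement genes 14 were positive, among them C4b, a component of the classical pathway (0.79 ± 0.28, and 0.83 with the GC trend removed). Of 38 inflammation and chemokine genes 16 were positive and 22 negative.

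**Figure D3:**
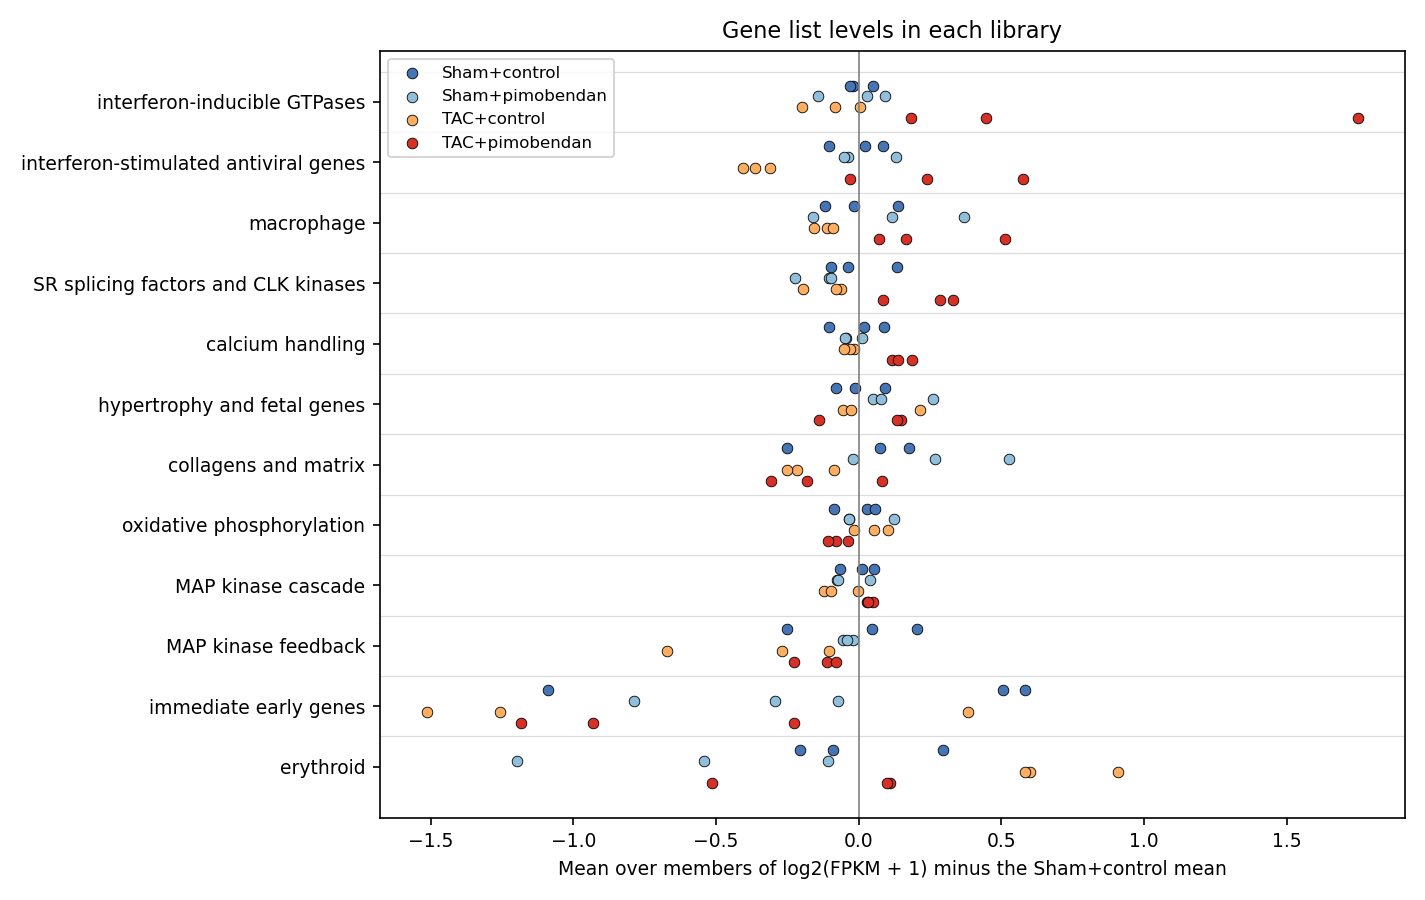
The score of 12 gene lists in each of the 12 libraries: the mean over tested members of log2(FPKM + 1) minus the Sham+control mean, with 1 point per mouse coloured by group. The interferon-inducible GTPases of TAC+pimobendan span 0.18 to 1.75, the immediate early genes spread from -1.09 to 0.58 within Sham+control, and the calcium handling scores of TAC+pimobendan lie between 0.12 and 0.19.

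Matrix genes mostly overlapped the sham range. Of 38 collagen and matrix genes 24 were negative, with a median of -0.13, and 2 lay below Sham+control without overlap, near the background of 4.51%. Col1a1, a chain of type I collagen, was at 22.2, 14.9 and 22.8 FPKM in Sham+control and 22.2, 14.96 and 12.9 FPKM in TAC+pimobendan, with overlap (-0.26 ± 0.26). Col3a1 differed by -0.37 ± 0.38, Postn, a matricellular protein of activated fibroblasts, by 0.27 ± 0.25 (-0.10 with the GC trend removed), and Ctgf, a TGF-beta and stretch target, by -0.54 ± 0.43. Mmp2, a gelatinase, was lower without overlap at 35.02, 28.4 and 25.8 FPKM against 24.5, 22.2 and 22.03 FPKM (-0.35 ± 0.14). Dcn, the collagen-binding proteoglycan decorin, differed by 0.40 ± 0.15, which was 0.06 with the GC trend removed. Of 27 TGF-beta family genes 16 were positive (median 0.03). The 2 with the smallest p were the BMP receptors Bmpr1a (0.55 ± 0.16) and Bmpr2 (0.48 ± 0.15), which had GC contents of 41.3% and 41.0% and stood at 0.32 and 0.24 with the trend removed.

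Vessel markers were split. Of 15 endothelial markers 8 were positive, with a median of 0.04, and 3 lay below Sham+control without overlap (background 4.51%). Their summed level was 1381 to 1588 FPKM in Sham+control and 1400 to 1762 FPKM in TAC+pimobendan. Pecam1, the endothelial adhesion molecule CD31, was at 84.5, 72.1 and 80.8 FPKM in Sham+control and 68.1, 59.4 and 63.0 FPKM in TAC+pimobendan (-0.31 ± 0.12). Esam, a protein of endothelial junctions, was at 54.6, 55.5 and 53.0 FPKM against 48.4, 42.6 and 40.7 FPKM (-0.31 ± 0.10). TAC+control was also lower than sham for Esam, at 41.4, 36.8 and 45.6 FPKM. Of 11 smooth muscle and pericyte markers 9 were negative. Acta2, smooth muscle alpha-actin, was at 66.1, 56.7 and 135 FPKM in Sham+control and 54.9, 34.4 and 21.1 FPKM in TAC+pimobendan. It did not overlap, with a difference of -1.20 ± 0.37 that was -1.22 with the GC trend removed and -0.82 without Sham+control replicate 3. Rgs5, a pericyte gene, had the opposite sign (0.39 ± 0.16, and 0.15 with the trend removed). Summed smooth muscle and pericyte markers were 330 to 435 FPKM in Sham+control and 350 to 365 FPKM in TAC+pimobendan.

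Energy metabolism genes differed little from sham, with more negative than positive differences in oxidative phosphorylation and glycolysis. Of 62 oxidative phosphorylation genes 46 had a negative difference, with a median of -0.09 that was -0.12 with the GC trend removed. Without overlap, 3 lay below Sham+control, near the background of 4.51%, and 0 above (background 10.2%). At an unadjusted limma p under 0.05, 7 of the 62 were lower and 1 higher, against 2.32% and 10.9% of all genes. The size of the median was within the differences between mice: list scores of TAC+pimobendan were between -0.11 and -0.04, and those of Sham+control between -0.09 and 0.06. Of 29 fatty acid oxidation genes 13 were positive and 16 negative, with a median of -0.03 that was 0.07 without TAC+pimobendan replicate 2. At an unadjusted limma p under 0.05, 3 of the 29 were higher and 2 lower, against 10.9% and 2.32% of all genes. Without overlap, 0 lay above Sham+control (background 10.2%) and 4 below (background 4.51%). The 2 with the smallest p were Etfb, an electron carrier of beta-oxidation (911, 988 and 995 FPKM against 846, 820 and 825 FPKM), and Acadvl, the very long chain acyl-CoA dehydrogenase (-0.19 ± 0.07). Both lay below Sham+control without overlap. Of 29 genes of the TCA cycle and pyruvate metabolism 13 were positive and 16 negative. At an unadjusted limma p under 0.05, 3 were higher and 3 lower, against 10.9% and 2.32% of all genes. Without overlap, 1 lay above Sham+control (background 10.2%) and 2 below (background 4.51%). Sdhb, an iron-sulfur subunit of succinate dehydrogenase, differed by -0.24 ± 0.08, and Suclg1, a subunit of succinyl-CoA ligase, by -0.21 ± 0.07 (-0.32 with the GC trend removed). Of 22 glycolysis genes 16 were negative, with a median of -0.08, and 0 had non-overlapping groups (background 10.2% above and 4.51% below). Mitochondrial dynamics genes went the other way, with 18 of 27 positive (background 56.4%) and 8 without overlap above Sham+control (background 10.2%). Dnm1l, the fission GTPase DRP1, differed by 0.58 ± 0.17 and Esrrg, a nuclear receptor of mitochondrial genes, by 0.46 ± 0.12. These were 0.34 and 0.26 with the GC trend removed, and the list's median went from 0.06 to 0.00.

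Chaperone genes had more negative than positive differences, but as a list they overlapped sham. Of 31 heat shock genes and chaperones 19 were negative, with a median of -0.08. Without overlap, 2 lay below Sham+control (background 4.51%) and 0 above (background 10.2%). The list's score was -0.10, -0.09 and 0.006 in TAC+pimobendan, against 0.08, 0.03 and -0.12 in Sham+control. Hspb1, the small heat shock protein HSP27, was at 492, 643 and 377 FPKM in Sham+control and 290, 291 and 389 FPKM in TAC+pimobendan, with overlap in 1 mouse (-0.62 ± 0.19). Hsp90ab1, a constitutive HSP90, was at 751, 763 and 681 FPKM against 657, 617 and 605 FPKM, without overlap (-0.22 ± 0.07). Hspa1b, an inducible HSP70 with a near-identical copy, was chosen after its values were seen: it was between 1.58 and 3.99 FPKM in all 6 libraries, while TAC+control held 2.93, 49.4 and 52.3 FPKM. Its difference was 0.06 ± 0.73, and 0.12 with the GC trend removed. Of 31 ER stress genes 21 were negative, among them Hyou1, an ER chaperone, without overlap (-0.57 ± 0.22).

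Red cell genes overlapped the sham range. Of 9 erythroid genes tested 4 were positive, with a median of -0.20, and the summed level was 1675 to 3188 FPKM in Sham+control, 1265 to 2401 FPKM in TAC+pimobendan and 4322 to 6809 FPKM in TAC+control. Alas2, the first enzyme of haem synthesis in red cells and chosen after its values were seen, was at 4.76, 6.81 and 4.61 FPKM in Sham+control and 2.77, 6.08 and 5.30 FPKM in TAC+pimobendan. The ranges overlapped (-0.20 ± 0.26), and all 3 TAC+control libraries lay above both groups at 11.1, 13.9 and 10.8 FPKM. Hba-a1, an alpha-globin with a near-identical copy, differed by -0.34 ± 0.42. The list's median was 0.99 in TAC+control minus Sham+control.

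RNA-processing and zinc finger genes mostly had small positive differences. Of 29 SR splicing factors and their CLK kinases 25 were positive and 5 lay above Sham+control without overlap (background 10.2%), with a median of 0.20 that was 0.08 with the GC trend removed. Srsf5, a splicing factor whose own RNA is spliced in response to growth signals, stood at 51.4, 42.1 and 54.4 FPKM in Sham+control and 86.8, 85.5 and 61.6 FPKM in TAC+pimobendan. Sham+pimobendan stood as high at 89.4, 91.4 and 61.8 FPKM, and TAC+control lowest at 31.7, 32.1 and 29.4 FPKM. The difference was 0.64 ± 0.16 without overlap, and 0.38 with the trend removed. Luc7l2, a U1 snRNP-associated factor, differed by 0.56 ± 0.14 (0.35 with the trend removed). Of 27 hnRNP and cold-inducible RNA-binding proteins 24 were positive, and their median of 0.17 was 0.03 with the trend removed. Qk, the quaking splicing regulator, differed by 0.34 ± 0.09, and by 0.10 with the trend removed. Of 232 zinc finger Zfp genes 184 were positive, 48 lay above Sham+control without overlap (background 10.2%) and 9 below (background 4.51%), and the median of 0.14 was 0.07 with the trend removed. Zfp943 stood at 1.13, 1.25 and 1.45 FPKM in Sham+control and 2.29, 3.84 and 3.66 FPKM in TAC+pimobendan (0.89 ± 0.18, and 0.54 with the trend removed). Median GC contents of these lists were 43.3%, 43.6% and 46.4%, below the 50.1% of all genes tested. Of 20 circadian clock genes 15 were positive, with a median of 0.18 (0.08 with the trend removed). The 63 cytosolic ribosomal protein genes and the 31 proteasome genes had medians of -0.02 and 0.00.

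**Figure D4:**
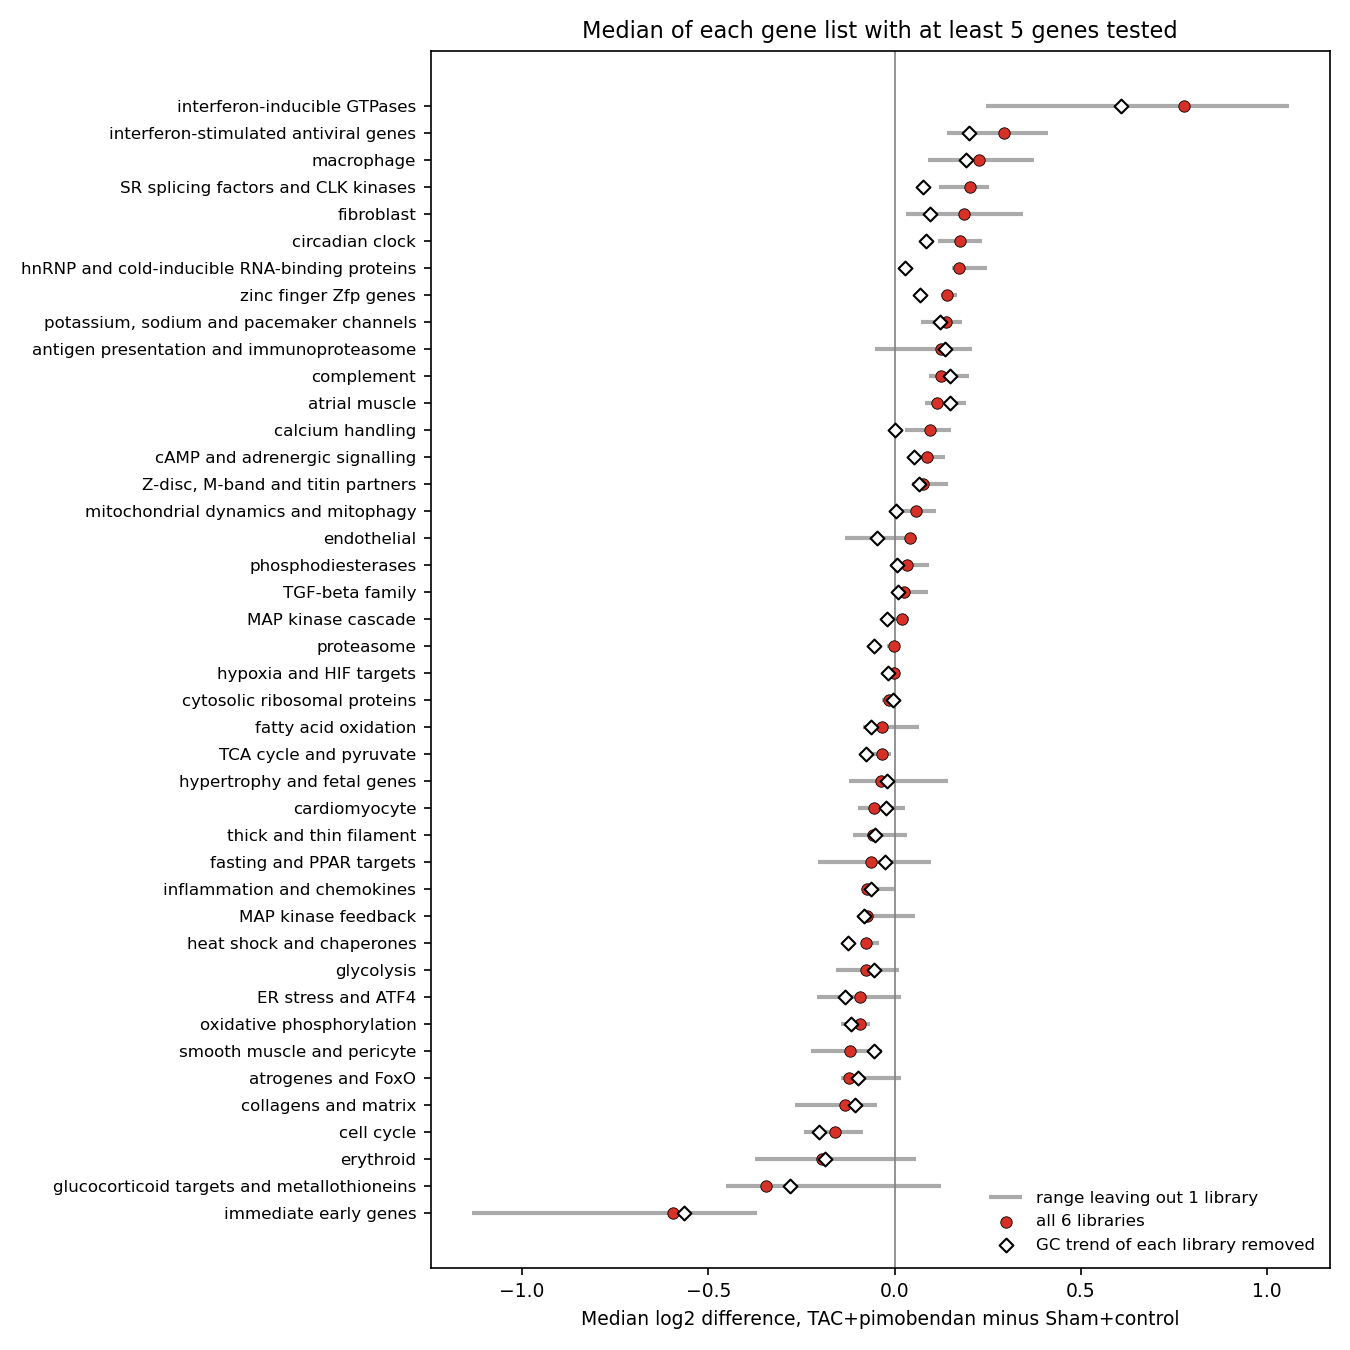
Median log2 difference, TAC+pimobendan minus Sham+control, of each gene list with at least 5 tested members: red points, all 6 libraries; white diamonds, each library's GC trend removed; grey bars, the range when 1 of the 6 libraries was left out. The interferon-inducible GTPases (0.78) and the immediate early genes (-0.59) lie at the ends with the widest bars, and the hnRNP list goes from 0.17 to 0.03 with the GC trend removed.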

How the data were processed

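Messenger RNA of 12 left ventricles was sequenced. The authors deposited a single table of FPKM and TPM values per gene and library, without counts. Among the tools in the submitters' processing notes are Bowtie2 2.2.5 and HISAT2 2.0.4, then RSEM 1.2.12 and DESeq2 1.4.5, and the build is GRCm38. Which of them made the values is not given in the sources used here. Genes reaching 1 FPKM in 3 or more libraries entered limma 3.58.1 (limma-trend, run under R 4.3.3) on log2(FPKM + 1), all 12 libraries in 1 fit with 8 residual degrees of freedom, two-sided. TPM values served as an alternative. The planned model for counts was not applicable. GC content came from the longest GENCODE transcript of each gene and was available for 11334 genes (99.3%). A library's GC trend was removed as an alternative by subtracting a smooth fit of its deviations on GC content. The limma fit was tested on simulated data. Members and lists were chosen with earlier results of these data known. Named genes were the panel of 17, the 5 of smallest p in each direction whose higher group averaged at least 5 FPKM, and the 2 of smallest p in each list described, apart from those marked as chosen after their values were seen. Some genes that this rule names are not reported here. Each replicate is a separate mouse per the labels, and no label pairs mice across groups. Alternatives covered the pseudocount, the filter, scaling, the samples fitted, the model, the GC trend and leaving out each library.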

Additional observations from a re-analysis of the deposited data

How the results depend on the processing

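No gene was called by limma under any alternative tried, with these exceptions. Fitting only the groups compared called 1 gene, Dynlt1b, as did filtering and fitting on the 6 libraries compared (1 gene). Leaving out 1 library at a time gave 0 to 333 genes called, and 0 to 71 members called within gene lists, the upper values without TAC+pimobendan replicate 1. Lacking Sham+control library 1 and TAC+pimobendan library 1 together, chosen after seeing the data, 694 genes and 114 list members were called. With the GC trend removed and TAC+pimobendan library 1 lacking, also chosen after seeing the data, 5 genes and 2 list members were called. Leaving out libraries, 11415 genes were tested, or 11334 with the GC trend removed. How many list members were tested is not given here, so member counts cannot be set against the share of all genes. Counts at an unadjusted p under 0.05 moved with scaling: 960 higher and 543 lower with median-ratio scaling, 959 and 534 with quantile normalization, 1379 and 177 with TPM. With the replicate block no gene was called (smallest adjusted p 0.338). Same-numbered mice of the 2 groups compared did not deviate together from their group means (r of -0.33, -0.07 and -0.44). The libraries also differed in GC trend, so these values cannot decide whether the mice were paired.

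Of 114 named genes, 10 had another sign somewhere. Leaving out 1 library, the log2 difference ranged from -0.38 to 0.17 for Acta1, -0.37 to 0.080 for Alas2, -0.025 to 0.077 for Atp2a2, -0.34 to 0.084 for Fbxo32, -1.46 to 0.092 for Fos, -0.11 to 0.36 for Hspa1b, -0.032 to 0.11 for Pde3b and -0.25 to 0.033 for Tnnc1. Under quantile normalization it was -0.0047 for Atp2a2, -0.034 for Hspa1b, -0.017 for Pde3b and 0.049 for Tpm1. It was -0.016 for Atp2a2 with median-ratio scaling. With the GC trend removed, with or without the replicate block, it was -0.021 for Atp2a2, -0.11 for Pde3b and -0.10 for Postn. With library weights it was 0.025 for Acta1 and -0.15 for Hspa1b, and lacking both first libraries 0.013 for Alas2, 0.043 for Fos and -0.085 for Hspa1b. The cause was not tested. The depth is unknown, and with 3 mice in each group the median SE over genes was 0.13 log2 units.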
